A study of Bos taurus with 6 samples.

Results

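The 10 genes described here encode enzymes of de novo lipogenesis, fatty acid elongation and fatty acid desaturation, with 1 regulator. They are ACLY, ACACA, FASN, THRSP, ME1, ELOVL6, ELOVL5, SCD, FADS1 and FADS2, taken by symbol from a fixed list, and all 10 were found among the 22839 symbols counted. RNA was sequenced from longissimus thoracis muscle of 6 Hanwoo (Korean native cattle) steers that were raised conventionally on commercial feed, with 1 library per steer. The high-NFMP group, with a high number of fine marbling particles, held steers 3-8, 10-8 and 10-9, aged 32.5, 33.8 and 34.5 months. The low-NFMP group held steers 3-1, 3-3 and 10-16, aged 37.8, 33.7 and 35.4 months. The labels name no treatment, and the groups differ in a measured carcass trait and also in age. In the paper, the sequenced high-NFMP steers also had a higher marbling score, rib eye area and auction price. NFMP and marbling score thus cannot be told apart here. Each library mixes all cell types of the muscle piece.

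De novo lipogenesis builds fatty acids in the cytosol from citrate. ATP citrate lyase (ACLY) splits citrate into acetyl-CoA, acetyl-CoA carboxylase alpha (ACACA) carboxylates it to malonyl-CoA, and fatty acid synthase (FASN) joins these units into palmitate with NADPH that malic enzyme (ME1) helps to supply. Palmitate is lengthened by ELOVL6, stearoyl-CoA desaturase (SCD) makes oleate from stearate, and FADS1, FADS2 and ELOVL5 work on polyunsaturated fatty acids. In cattle adipose tissue is the main site of this synthesis, and oleate made by SCD is a large part of marbling fat.

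The reads of this 3′ mRNA method gather near the poly(A) end of a transcript, so counts are not divided by transcript length, and levels are compared here between steers and not between genes. The deposited counts summed to between 16283873 and 17192750 per library. Normalized counts below are counts scaled by trimmed mean of M-values (TMM) factors to the mean effective library size. All 9 muscle fibre markers examined were counted in every library, with ACTA1 the most abundant. All 14 adipocyte markers were also counted in every library, which bears on genes that fat cells express.

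Of the 10 genes, 1 passed the threshold of the study (unadjusted p below 0.05, fold change above 2), FASN, which was higher in the high-NFMP group. That threshold was passed by 3.9% of all 15039 tested genes, by 2.53% in the higher and 1.36% in the lower direction. FASN was also the only 1 of the 10 with an unadjusted p below 0.05, a share close to the 11.5% of all tested genes. The test was the quasi-likelihood F test of edgeR. After Benjamini-Hochberg adjustment over all tested genes 0 of the 10 genes were below 0.05, against 0.685% of all. DESeq2 put 1 of the 10 there, FASN, and 291 of all tested genes. The p and fold change threshold was passed by 2 of the 10 genes, FASN and THRSP, with DESeq2 (570 of all tested genes). The same 2 genes passed it with the first number of a label (3 or 10) as a term (554 of all). With age as a term 0 of the 10 passed it (651 of all). By edgeR without an added term 586 of all tested genes passed it. The log2 fold change was positive for 7 genes and negative for 3, with a median of 0.32, where 51.9% of all tested genes were positive and their median was 0.018. In each of the 10 genes the steers of the groups overlapped, whereas in 17.1% of all tested genes they did not.

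**Figure D1:**
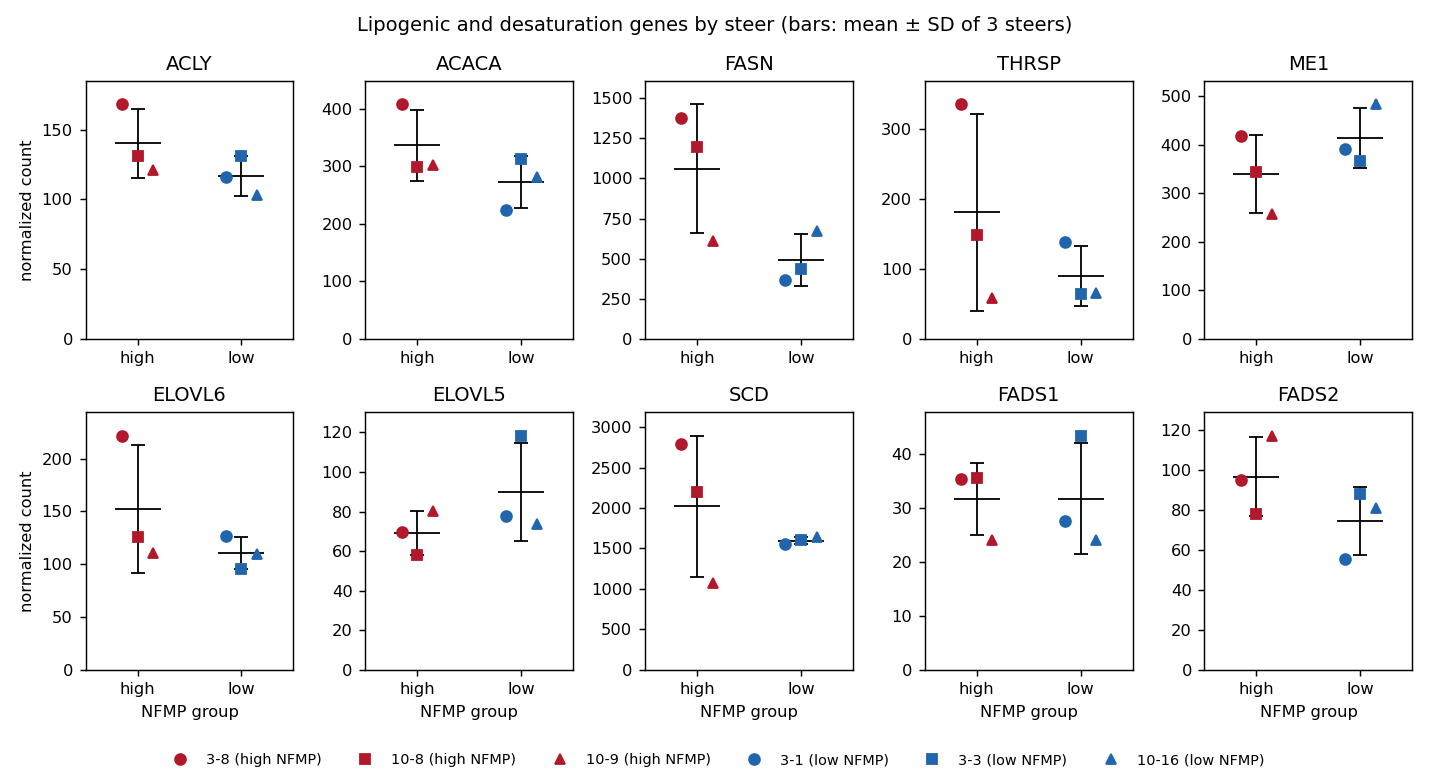
Normalized counts of the 10 genes on linear axes from 0, with 1 point per steer (red, high NFMP; blue, low NFMP) and the mean ± SD of 3 steers. FASN lay between 608.8 and 1377 in the high-NFMP steers and between 366.5 and 672.4 in the low-NFMP steers, and steer 3-8 was the highest of the 6 in 6 of the 10 genes.

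FASN, the enzyme that assembles palmitate, had 1377, 1196 and 608.8 normalized counts in the high-NFMP steers 3-8, 10-8 and 10-9. In the low-NFMP steers 3-1, 3-3 and 10-16 it had 366.5, 435.8 and 672.4. Steers 3-8 and 10-8 stood above all low-NFMP steers, and steer 10-9 lay just below steer 10-16. The means ± SD over 3 steers were 1061 ± 402 and 491.6 ± 160, a 2.16-fold difference, or 1.11 on the log2 scale (standard error 0.31, 95% interval 0.43 to 1.78). The unadjusted p was 0.00395 and the adjusted p 0.178 by edgeR. An exact permutation test of log2 CPM (counts scaled to a common library size) gave p = 0.2 (two-sided), where 3 steers against 3 cannot go below 0.1. FASN fell below the fold change limit without steer 3-8 (log2 fold change 0.87) or 3-1 (0.93), and with age as a term it was at 0.71 with an unadjusted p of 0.0991 by edgeR. Among steers whose label starts with 3 the difference in log2 CPM was 1.78 (1 high against 2 low), and among those starting with 10 it was 0.34 (2 high against 1 low).

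ACLY and ACACA, which act upstream of FASN, did not pass the threshold. Their ratios to FASN did not separate the groups (FASN to ACACA and FASN to ACLY, two-sided exact permutation p = 0.2 each). ACLY, which makes cytosolic acetyl-CoA, had 168.2, 131.1 and 121.4 normalized counts in the high-NFMP steers and 115.8, 131.4 and 103.0 in the low-NFMP steers. Steer 3-8 was apart and the other 5 lay together. The log2 fold change of ACLY was 0.26 (standard error 0.25, 95% interval -0.27 to 0.80). ACACA, the cytosolic carboxylase that commits acetyl-CoA to fatty acid synthesis, had 407.4, 297.8 and 302.9 normalized counts in the high-NFMP steers and 223.9, 312.8 and 280.7 in the low-NFMP steers. Steer 3-8 was the highest and steer 3-1 the lowest, and the other 4 lay together. Its log2 fold change was 0.30 (standard error 0.22, 95% interval -0.16 to 0.77). Without steer 3-8 the log2 fold changes were 0.11 for ACLY and 0.14 for ACACA, and with age as a term they were 0.10 and 0.018. ACACA was at 0.18 without steer 3-1. The intervals of both genes reach from a small decrease to an increase below 2-fold.

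ME1, a cytosolic source of NADPH, pointed the other way. It had 417.5, 343.4 and 257.7 normalized counts in the high-NFMP steers and 391.4, 366.4 and 482.6 in the low-NFMP steers. Steer 10-16 was the highest and steer 10-9 the lowest. The log2 fold change was -0.28 (standard error 0.22, 95% interval -0.75 to 0.18), so a 2-fold change of ME1 in either direction lies outside its interval. The value rested on few steers, at -0.46 without steer 3-8, -0.11 without steer 10-9 and -0.13 without steer 10-16.

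THRSP encodes Spot 14, a small nuclear and cytosolic protein that promotes lipogenesis and is abundant in adipose tissue. It varied the most among steers of the high-NFMP group, with 334.4, 147.8 and 58.2 normalized counts, and had 138.7, 63.9 and 64.6 in the low-NFMP steers. The highest and the lowest of the 6 libraries were both high-NFMP steers, 5.75-fold apart. For THRSP the log2 fold change was 1.01 (standard error 0.61, 95% interval -0.39 to 2.42), nearly that of FASN but with a larger standard error, and the unadjusted p was 0.134 by edgeR. Without steer 10-9 the log2 fold change of THRSP was 1.45 with an unadjusted p of 0.00552, past the threshold, and without steer 3-8 it was 0.20 with an unadjusted p of 0.675. THRSP was also past the threshold with DESeq2 (1.01, unadjusted p = 0.0308) and with the first label number as a term (1.23, unadjusted p = 0.0185 by edgeR).

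ELOVL6, which lengthens palmitate and related saturated fatty acids, had 221.9, 125.6 and 110.3 normalized counts in the high-NFMP steers and 126.3, 95.3 and 110.0 in the low-NFMP steers. Steer 3-8 was again the highest, and the other high-NFMP steers lay within the range of the low-NFMP group. For ELOVL6 the log2 fold change was 0.47 (standard error 0.29, 95% interval -0.16 to 1.09), and it was 0.090 without steer 3-8 and 0.66 (unadjusted p = 0.0403 by edgeR) without steer 10-9. ELOVL5, which lengthens polyunsaturated fatty acids, had 69.9, 57.8 and 80.2 normalized counts against 77.5, 118.4 and 73.7. Steer 3-3 of the low-NFMP group was the highest for ELOVL5, and the log2 fold change was -0.37 (standard error 0.31, 95% interval -1.03 to 0.28), which was -0.13 without that steer and -0.23 without steer 10-8.

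SCD, the delta-9 desaturase, had 2794, 2200 and 1075 normalized counts in the high-NFMP steers, while the low-NFMP steers lay close together at 1550, 1599 and 1645. Steers 3-8 and 10-8 were above and steer 10-9 below the whole low-NFMP group. The SD over 3 steers was 873 with a high NFMP and 47.2 with a low NFMP, and whether the spreads differ was not tested. For SCD the log2 fold change was 0.34 (standard error 0.28, 95% interval -0.26 to 0.94, adjusted p = 0.674 by edgeR). It was 0.033 without steer 3-8, 0.66 without steer 10-9 (unadjusted p = 0.00363 by edgeR) and 0.044 with age as a term. The counting error of SCD in a library was between 1.9% and 3.1%, small beside the differences among the high-NFMP steers but about as large as those among the low-NFMP steers.

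FADS2, the delta-6 desaturase, had 95.3, 77.8 and 117.3 normalized counts in the high-NFMP steers and 55.5, 87.9 and 80.8 in the low-NFMP steers, and the log2 fold change was 0.37 (standard error 0.30, 95% interval -0.26 to 1.01). It was 0.20 without steer 3-1, 0.22 without steer 10-9 and 0.19 with age as a term. FADS1, the delta-5 desaturase, had 35.5, 35.6 and 24.1 against 27.7, 43.5 and 24.2, and the log2 fold change was -0.0092 (standard error 0.41, 95% interval -0.88 to 0.87). Neither desaturase separated the groups. FADS1 was counted between 24 and 47 times in a library, with a counting error of up to 20.4%. Its interval holds both a decrease and an increase short of 2-fold, so its direction is not settled. FADS1 and FADS2 overlap on chromosome 29 in the RefSeq gene table (assembly ARS-UCD2.0), and reads shared by the 2 genes were not measured. Their log2 CPM did not move together across the 6 steers (r = -0.024).

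**Figure D2:**
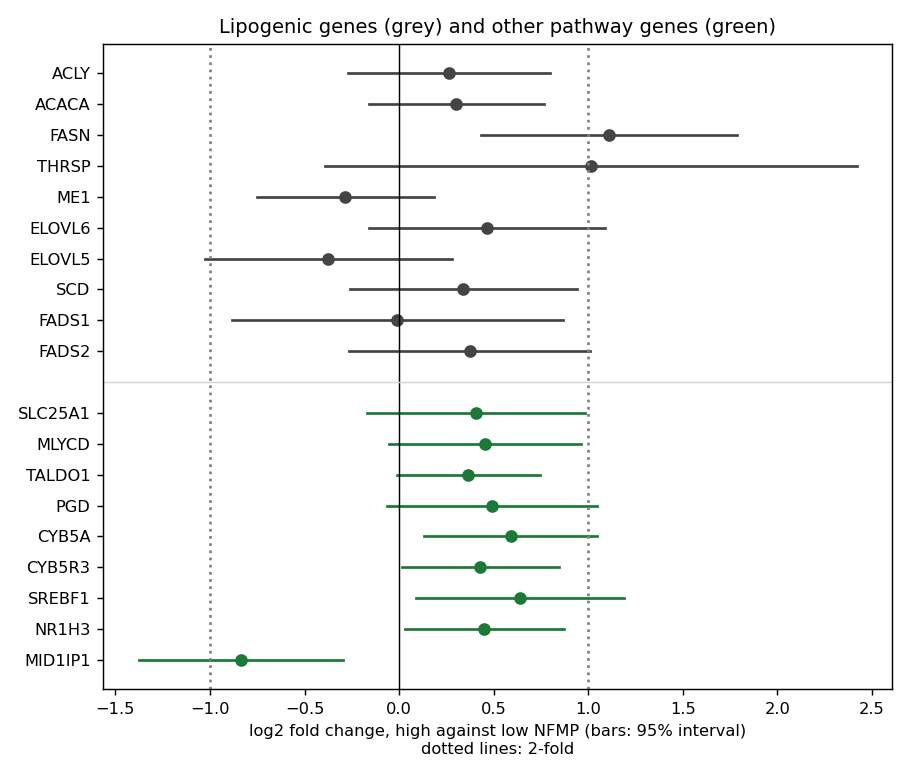
Log2 fold change of high against low NFMP (x axis) with its 95% interval for the 10 genes (grey) and for other genes of the pathway (green), with dotted lines at a 2-fold change. The interval of FASN, 0.43 to 1.78, is the only one of the 10 that leaves out 0, and MID1IP1 lies on the other side at -0.84.

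The wider pathway was read from 4 lists of 47 other genes, of which 42 were tested. By edgeR 0 of them passed the p and fold change threshold and 0 had an adjusted p below 0.05, while 4 were higher and 1 was lower at an unadjusted p below 0.05. All tested genes passed the unadjusted p at 5.73% in the higher and 5.74% in the lower direction. The median log2 fold change of the 42 genes was 0.084. Of the 5 genes left out, ELOVL2, ELOVL3, ELOVL4 and FADS6 were counted at most 16 times in a library. The symbol CEBPA was not among the symbols counted.

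MID1IP1, a paralog of THRSP whose product binds acetyl-CoA carboxylase and promotes its polymerization, was the lower gene. It had 843.1, 1291 and 681.0 normalized counts in the high-NFMP steers and 1361, 1491 and 2175 in the low-NFMP steers. The 3 high-NFMP steers were all below the 3 low-NFMP steers. On the log2 scale MID1IP1 changed by -0.84 (standard error 0.25, unadjusted p = 0.005 and adjusted p = 0.197 by edgeR), short of the fold change limit, by -1.11, past it, without steer 10-8 and by -0.57 without steer 10-16. SREBF1, which encodes the sterol regulatory element binding protein that drives lipogenic transcription, had 407.4, 759.0 and 431.3 normalized counts against 412.4, 267.4 and 345.3. Its log2 fold change of 0.64 (standard error 0.26, unadjusted p = 0.0255 by edgeR) rested on steer 10-8, without which it was 0.33 with an unadjusted p of 0.181, and on steer 3-3, without which it was 0.49 with an unadjusted p of 0.117. With the first label number as a term SREBF1 was at 0.52 with an unadjusted p of 0.087. Other settings moved it up, to 0.96 with age as a term (unadjusted p = 0.00997 by edgeR). It was between 0.79 and 0.80 without steer 3-8, 10-9 or 3-1. NR1H3, the liver X receptor alpha that acts on SREBF1, was at 0.45 (standard error 0.20, unadjusted p = 0.0377 by edgeR), was named after its value was seen, and without steer 3-3 was at 0.35 with an unadjusted p of 0.154. That p was also above 0.05 without steer 10-9 or 10-16, without a filter on low counts, with library totals alone and with the first label number as a term. With age as a term NR1H3 was at 0.63 with an unadjusted p of 0.0285 by edgeR.

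Of the partners of the desaturases and elongases, CYB5A and CYB5R3, which pass electrons to the desaturases as cytochrome b5 and its reductase, had log2 fold changes of 0.59 (standard error 0.21) and 0.43 (standard error 0.19). Their unadjusted p by edgeR was 0.0152 and 0.0434, and both went above 0.05 under other settings. CYB5A was at 0.36 (unadjusted p = 0.0898 by edgeR) without steer 3-8, at 0.49 (unadjusted p = 0.0671 by edgeR) without steer 3-1 and at 0.35 (unadjusted p = 0.241 by edgeR) with age as a term. CYB5R3 was at 0.24 (unadjusted p = 0.208 by edgeR) without steer 10-9, and its unadjusted p was also above 0.05 without steer 3-1, 3-3 or 10-16, with library totals alone and with age or the first label number as a term. The groups did not overlap in these 2 genes, both higher, nor in CYB5B, another cytochrome b5, which was lower at -0.51 and was named after its value was seen. This is 3 of the 13 tested genes of the list, where 17.1% of all tested genes had groups apart, and 6 of the 13 log2 fold changes were positive and 7 negative. In the NADPH list, TALDO1 and PGD of the pentose phosphate pathway had the smallest p, at log2 fold changes of 0.37 and 0.49 and an unadjusted p of 0.0566 and 0.0795 by edgeR. In the list of citrate and malonyl-CoA supply they were MLYCD, which degrades malonyl-CoA, at 0.45 and SLC25A1, the mitochondrial citrate carrier, at 0.41, with an unadjusted p of 0.0748 and 0.153 by edgeR. Neither list held a gene with an unadjusted p below 0.05 by edgeR with all 6 steers and no added term. PGD was at 0.14 with age as a term and at 0.67 (unadjusted p = 0.0248 by edgeR) without steer 10-9. SLC25A1 was at 0.19 with age as a term, at 0.26 without steer 3-1 and at 0.70 (unadjusted p = 0.0306 by edgeR) without steer 10-16.

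Across the 6 steers the 10 genes did not move as 1 block. The median Pearson r over the 45 pairs was 0.33, with 32 pairs positive and a range from -0.68 to 0.93, on log2 CPM. The median was 0.17 without steer 3-8 and 0.50 without steer 3-3. The tightest pair was ELOVL6 with THRSP (r = 0.93, rho = 0.77, exact permutation p = 0.0111 and 0.103, n = 6 steers), followed by SCD with THRSP (r = 0.85, rho = 0.83, exact permutation p = 0.0347 and 0.0583). Without the 2 steers farthest from the median of the first gene, r was 0.99 for ELOVL6 with THRSP and 0.51 for SCD with THRSP. These were the only 2 of the 45 pairs with an exact p of Pearson's r below 0.05, and after Benjamini-Hochberg adjustment over the 45 pairs the smallest exact permutation p was 0.5 for r and 0.578 for rho.

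FASN, ACACA, ACLY, SCD, ELOVL6 and THRSP were positively correlated in all 15 of their pairs, with a median r of 0.73, and were grouped after these values were seen. With each value taken as its deviation from the group mean, all 15 pairs remained positive, with a median of 0.65. These correlations rested on few steers, since without the 2 steers farthest from the median only 6 of the 15 were positive. ELOVL5 was negatively correlated with 7 of the 9 other genes, most with FASN (r = -0.68, rho = -0.77, exact permutation p = 0.121 and 0.103), which was -0.38 without the 2 farthest steers. Of these 7, the r with ACACA, ACLY and ME1 lay at -0.035, -0.076 and -0.082, and for deviations from the group means 5 of the 9 were negative. FASN and ME1 were uncorrelated over the 6 values (r = 0.089), but their deviations from the group means had an r of 0.94, the largest of the 45 pairs by that measure and described after it was seen, with no test: steers 3-8 and 10-8 had more of both transcripts than steer 10-9, and steer 10-16 more of both than the other low-NFMP steers.

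**Figure D3:**
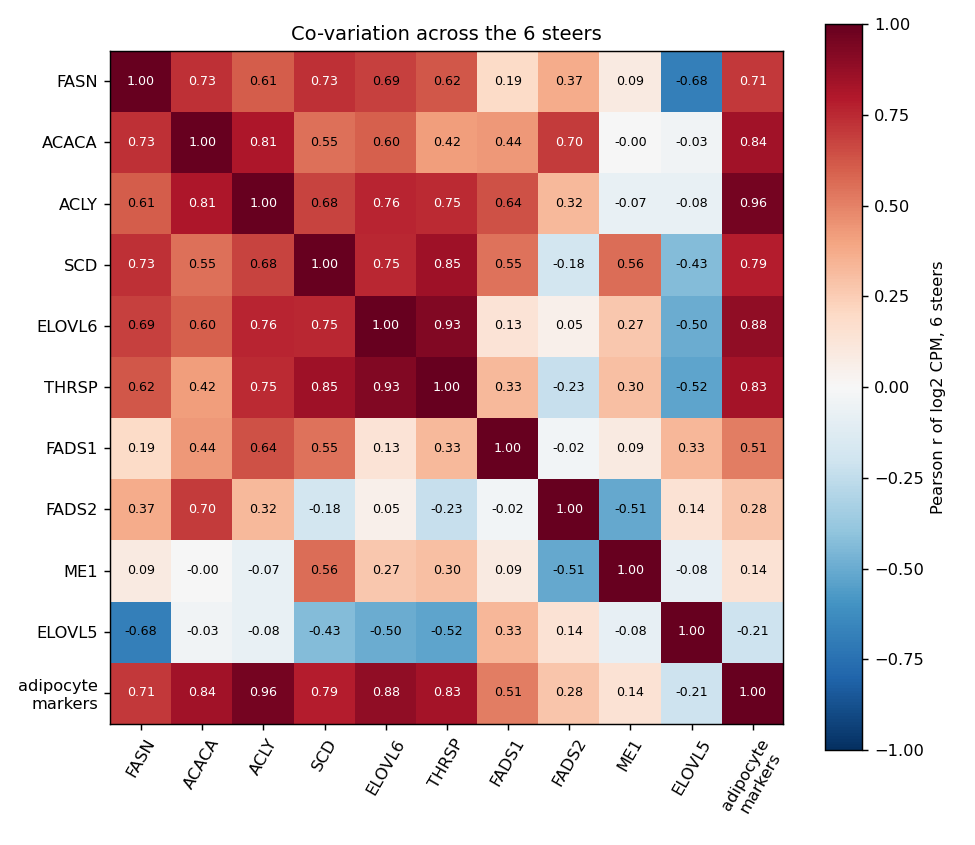
Pearson r of log2 CPM over the 6 steers for each pair of the 10 genes and with the mean of 14 adipocyte markers (last row and column), colored from -1 (blue) to 1 (red). The 6 genes at the upper left are positive with each other, ELOVL5 is negative with most of them, and ACLY has the highest r with the adipocyte markers, 0.96.

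The mean level of the 10 transcripts varied with that of adipocyte markers. Averaged over the 10 genes, log2 CPM was 4.02 in steer 3-8, 3.60 in 10-8, 3.25 in 10-9, 3.29 in 3-1, 3.42 in 3-3 and 3.33 in 10-16. The mean log2 CPM of the 14 adipocyte markers was 5.16, 4.47, 4.27, 4.23, 4.40 and 4.14 in the same order. The correlation of the 2 means was r = 0.97 and rho = 0.77 (exact permutation p = 0.00833 and 0.103, n = 6 steers). It was 0.94 without the 2 steers farthest from the median and 0.95 for deviations from the group means, and without steer 3-8 alone it was 0.80 with an exact permutation p of 0.1. Without steer 3-3 alone r was 0.97 with an exact permutation p of 0.05. Gene by gene, ACLY followed the markers most closely (r = 0.96, exact permutation p = 0.00278, adjusted 0.0278 over the 10 genes; rho = 0.94, adjusted p = 0.167). For the other genes with r above 0.7, which were ELOVL6, ACACA, THRSP, SCD and FASN, the adjusted exact p lay at 0.147 or above, and FADS2, ME1 and ELOVL5 had r of 0.28, 0.14 and -0.21. Without the 2 farthest steers r fell to -0.15 for ELOVL6 and 0.17 for THRSP.

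**Figure D4:**
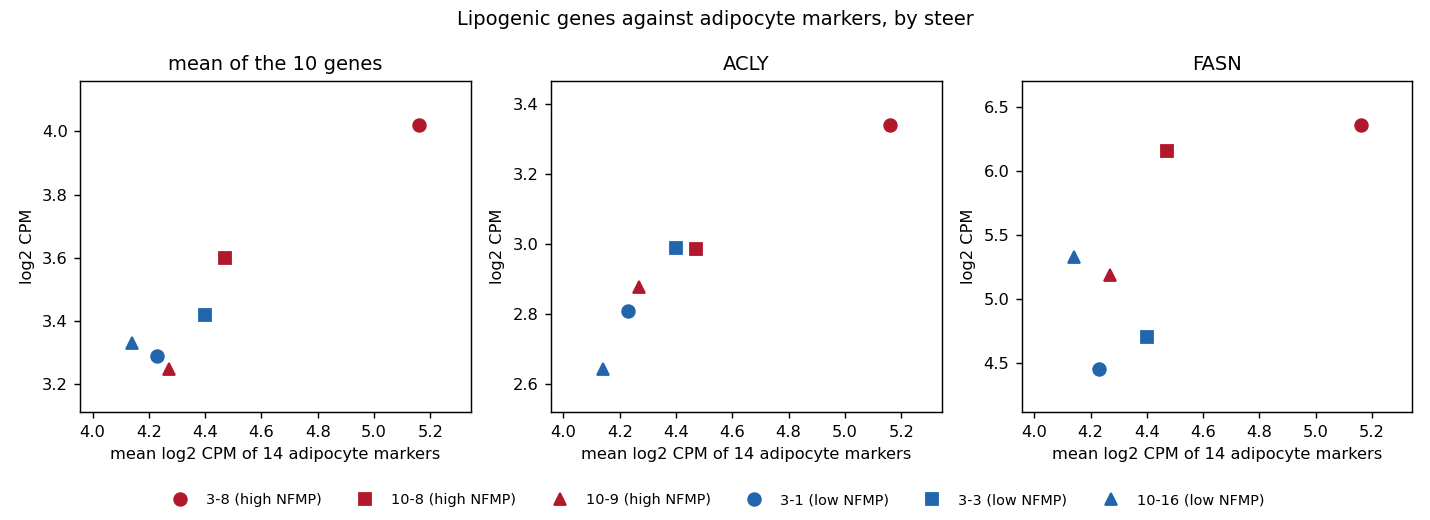
Mean log2 CPM of the 10 genes, and log2 CPM of ACLY and of FASN (y axes), against the mean log2 CPM of 14 adipocyte markers (x axes), with 1 point per steer (red, high NFMP; blue, low NFMP). Steer 3-8 lies apart at 5.16 on the x axis, and for FASN steer 10-8 lies well above steer 3-3 at nearly the same marker level, 4.47 and 4.40.

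Of the 14 adipocyte markers, 0 passed the p and fold change threshold by edgeR, while 6 had an unadjusted p below 0.05, all higher in the high-NFMP group, where 5.73% of all tested genes were higher at that p. In 5 of the 14 (CIDEA, LIPE, ADIPOQ, CIDEC and CFD) the groups did not overlap, each higher in the high-NFMP steers, against 17.1% of all tested genes in either direction. The marker mean given above was 0.38 log2 units higher in that group, with overlapping steers (two-sided exact permutation p = 0.2). ADIPOQ, among those 6, was at 0.63 (unadjusted p = 0.0141 by edgeR), at 0.36 without steer 3-8 (unadjusted p = 0.101 by edgeR) and at 0.32 with age as a term (unadjusted p = 0.269 by edgeR). The log2 fold change was positive for 13 of the 14 markers, against 51.9% of all tested genes, with a median of 0.54. It was also positive for 7 of 8 preadipocyte and fibroblast markers and for 8 of 9 muscle fibre markers. Summed over the 14 adipocyte markers, normalized counts ranged from 14698 to 19166 in the high-NFMP steers. They ranged from 12450 to 12984 in the low-NFMP steers, and no adipocyte marker was at 0 in any library. FABP4 was the largest part of this sum in steer 3-8 (25.8%), and GPD1, which muscle fibres also express, in the others (between 41% and 52.1%). Steer 3-8 had 1608 ADIPOQ, 532.0 PLIN1 and 4945 FABP4 counts, and the other 5 steers had at most 1016, 236.9 and 2044. In bulk muscle more fat cells and more RNA per fat cell cannot be told apart. Set against the marker mean within each library, FASN was at 1.20, 1.69 and 0.92 log2 units in the high-NFMP steers and 0.23, 0.31 and 1.19 in the low-NFMP steers, a difference of 0.70 (two-sided exact permutation p = 0.2). By the same measure ME1 was at -0.52, -0.11 and -0.31 against 0.32, 0.06 and 0.71, lower in each high-NFMP steer, a difference of -0.68 (two-sided exact permutation p = 0.1, the smallest possible). By this measure the groups did not overlap in 23% of all tested genes, and 21.6% were lower in each high-NFMP steer, so 1 of the 10 genes is no result about ME1. For ACACA, ACLY, SCD, ELOVL6 and FADS2 the difference lay between -0.14 and 0.02, and for ELOVL5, FADS1 and THRSP it was -0.72, -0.36 and 0.39. The groups overlapped in all of these 8 genes. The part of adipocyte RNA in the FASN difference was not tested.

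The balance between genes of a library does not depend on the scaling of its counts, and it kept the groups apart for 7 of the 45 pairs of the 10 genes. That is 15.6% of these pairs, near the 17.3% of all pairs of the 14964 tested genes counted in all libraries, so the count is no result about the 10 genes and the ratios below are given as a description. The FASN to SCD ratio of counts was 0.493, 0.543 and 0.566 in the high-NFMP steers and 0.236, 0.273 and 0.409 in the low-NFMP steers. It was higher in each high-NFMP steer, also in steer 10-9, whose FASN count was below that of steer 10-16. The FASN to ME1 ratio was 3.30, 3.48 and 2.36 against 0.936, 1.19 and 1.39, a difference of 1.38 on the log2 scale. The ELOVL5 to FADS2 ratio was lower in each high-NFMP steer, at 0.734, 0.743 and 0.684 against 1.40, 1.35 and 0.913. The other 4 pairs were ACLY with ELOVL5 and ME1 with ACACA, ACLY and ELOVL6. Each of the 7 had a two-sided exact permutation p of 0.1, the smallest that 3 against 3 allows, and none was adjusted. When FASN was set against every other tested gene counted in all libraries, its ratio was higher in each high-NFMP steer for 35.5% of 14963 genes, so FASN ratios that separate the groups are frequent. Its ratio to MID1IP1, chosen after the values were seen, was 1.63, 0.926 and 0.894 in the high-NFMP steers and 0.269, 0.292 and 0.309 in the low-NFMP steers, a difference of 1.93 on the log2 scale.

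**Figure D5:**
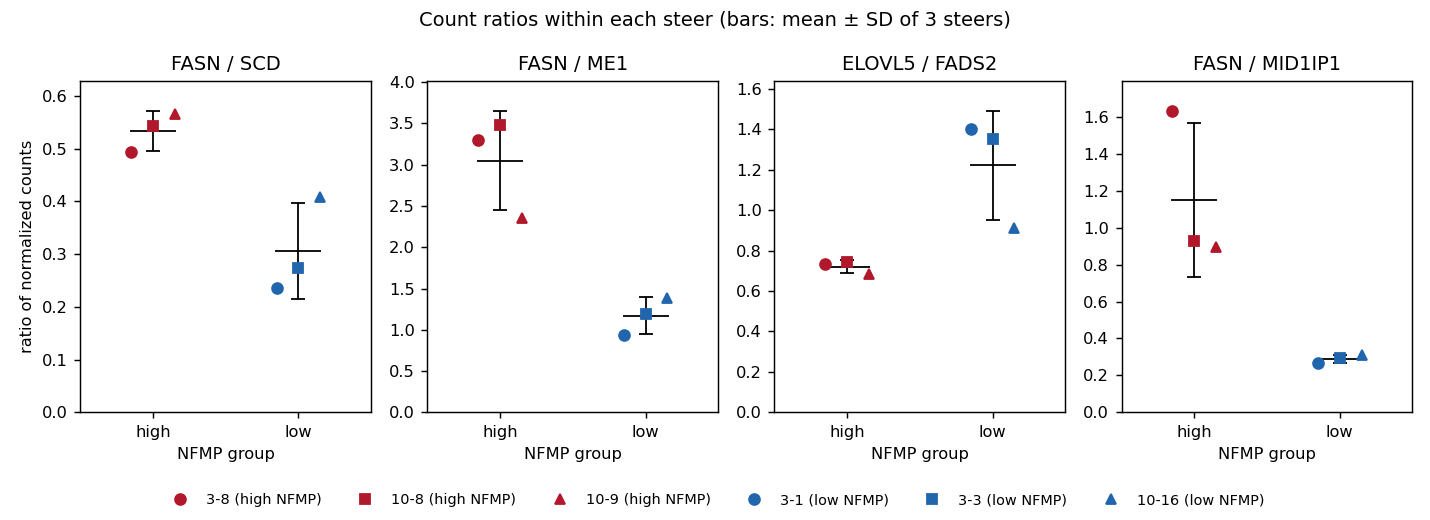
Ratio of normalized counts of FASN to SCD, FASN to ME1, ELOVL5 to FADS2 and FASN to MID1IP1 within each steer, on linear axes from 0, with the mean ± SD of 3 steers. The groups do not overlap in any of these 4 panels, which were chosen for that, and the FASN to MID1IP1 ratio lies between 0.269 and 0.309 in the low-NFMP steers.

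The genes were also set against 5 regulators of lipogenesis across the 6 steers, SREBF1, MLXIPL, NR1H3, PPARG and MID1IP1, and this family of 50 relations was chosen after the group comparison was seen. PPARG, the master regulator of fat cell differentiation, with ACLY was the only relation with an exact p of Pearson's r below 0.05 (r = 0.87, rho = 0.83, exact permutation p = 0.00972 and 0.0583, adjusted 0.486 and 0.874). Without the 2 farthest steers it was 0.42. SREBF1 with FASN had r = 0.57 and rho = 0.20 (exact permutation p = 0.236 and 0.714), and it was -0.081 without the 2 farthest steers. MLXIPL, which encodes the glucose-responsive factor ChREBP, with ELOVL6 had r = 0.80 and rho = 0.54 (exact permutation p = 0.0528 and 0.297), and 0.35 without the 2 farthest steers. None of the 50 passed adjustment.

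Age differed between the groups, and was set against the 10 genes after the comparison was seen. ACACA had its highest count in the youngest and its lowest in the oldest steer (r = -0.94, rho = -0.94, exact permutation p = 0.00972 and 0.0167), and did not pass adjustment over the 10 genes (0.0972 and 0.0833). ACLY had the same rank correlation with age (r = -0.73, rho = -0.94, exact permutation p = 0.107 and 0.0167, adjusted 0.288 and 0.0833), and r was -0.99 without the 2 steers farthest from the median age. For ACACA it was -0.86, and for deviations from the group means it was -0.91. FASN with age had r = -0.72 and rho = -0.60 (exact permutation p = 0.0944 and 0.242), which was -0.051 without the 2 farthest steers. Age and NFMP group cannot be fully told apart in 6 steers.

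The genes whose log2 CPM followed the mean standardized profile of the 10 genes most closely over the 6 libraries, among 13341 others with a mean of at least 20 normalized counts, were LOC112446118 (r = 0.98), SYNE3, LOC112442401, PKD1L2, KRT8, PTPRJ, WDSUB1, SLC6A14, ANO6 and CHL1 (r = 0.97). An r above 0.9 was reached by 119 genes, 0.892% of those compared, among them 2 of the 14 adipocyte markers. Within the 10 genes, r with this profile was 0.91 for ACLY, 0.88 for ACACA and 0.85 for SCD, and lowest for ELOVL5 at -0.14.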

How the data were processed

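RNA was sequenced from longissimus thoracis muscle of 6 steers, grouped by their sample labels into 3 high-NFMP and 3 low-NFMP animals. The authors deposited raw read counts per gene symbol, whole numbers without normalization, for 23015 rows (22839 symbols). Their methods name mapping with Tophat2 and counting with HTSeq, and also Bowtie2 with unique and multiple alignments, while the processing notes name Bowtie2 and bedtools. The sources used here do not say which of these made the counts, or whether strand was used. Reads of near-identical or overlapping genes can thus be shared.

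Analysis used edgeR 4.0.16 in R 4.3.3, with the default filter (minimum count 10, minimum total 15), which kept 15039 rows and all 10 genes, TMM factors between 0.915 and 1.083, robust dispersions and the quasi-likelihood test. Adjustment ran over all tested rows. Standard errors came from the fold change and the F statistic. Correlations used log2 CPM with a prior count of 2 and exact permutation over 720 pairings. DESeq2 1.42.0 and limma 3.58.1 were alternatives. The procedure was tested on simulated counts. Nothing says whether libraries were prepared independently beyond 1 steer each, and the counting errors given cover counting only, while the intervals of fold changes include the spread between steers.

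The genes and lists were chosen with earlier results of these data known. The named genes were the 10 genes, those of 4 pathway lists past the threshold or with the 2 smallest p of a list, 3 adipocyte markers, and the 10 genes with the most similar profile. NR1H3, CYB5B, MLXIPL, PPARG, GPD1, PDGFRA, CSF1R, CD14, CDH5 and the adipocyte markers with groups apart were named after their values were seen. Marker lists for preadipocytes and fibroblasts, endothelium, leucocytes and muscle fibres had 0 genes past the p and fold change threshold by edgeR, and median log2 fold changes of 0.34, -0.012, 0.27 and 0.24. Of the 9 muscle fibre markers 8 were positive, and of the 8 preadipocyte and fibroblast markers 7. Of these 4 lists 1 gene had an unadjusted p below 0.05, PDGFRA, which was lower at -0.51 with groups that did not overlap. The groups were also apart in 2 of 5 leucocyte markers, CSF1R at 0.73 and CD14 at 0.57, both higher. They were apart in 1 of 5 endothelial markers, CDH5, lower at -0.16, and in 0 of 9 muscle fibre markers. Of all tested genes 17.1% had groups apart.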

Additional observations from a re-analysis of the deposited data

How the results depend on the processing

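No paired analysis was possible because the groups held different steers, and no label matches them in pairs. Steer labels begin with 3 or 10 in both groups, but on 1 high and 2 low or 2 high and 1 low steers, and this label number was fitted as a term. Of the 150 values of the 10 genes under 15 alternatives, 141 kept their direction and side of the p and fold change threshold. FADS1 changed sign, to 0.14 with the first label number as a term, to 0.17 without steer 10-9 and to 0.28 without steer 3-3, and lay between -0.14 and 0.28 with a steer left out. Of the adipocyte markers, PLIN1 was between -0.058 (without steer 3-8) and 1.08 with a steer left out, and FABP4 between -0.33 (without steer 3-8) and 0.99, and at -0.11 with age as a term. With the first label number as a term they were 0.94 and 0.73 (unadjusted p = 0.00626 and 0.0425 by edgeR, against 0.182 and 0.354 without it). The number of the 10 genes past the threshold was 2 with DESeq2 and with the first label number as a term (THRSP joined FASN) and 0 with age as a term, and between 0 and 2 with a steer left out. The adjusted p of FASN was 0.0188 with DESeq2 and 0.0292 without steer 10-9 by edgeR, and lay between 0.0701 and 0.657 otherwise. Of all tested genes, 586 passed the threshold, 969 without a filter and 364 with at least 10 counts in every library. The number was 570 with DESeq2, 554 with the first label number as a term and 651 with age as a term. It was between 630 and 744 with a steer left out. The number at an adjusted p below 0.05 was 103, and 240 without a filter, 291 with DESeq2, 69 with library totals, 70 with quantile normalization and limma, 31 with age as a term and between 28 and 82 with a steer left out. The median r of the 45 pairs was 0.45 for deviations from the group means and between 0.17 and 0.50 with a steer left out. The correlation of the means of the 10 genes and of the adipocyte markers was 0.77 as Spearman's rho and between 0.80 and 0.98 with a steer left out. The causes were not tested.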
